A study of Mus musculus with 9 samples.

Results

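The genes described here are those of the proteasome and the immunoproteasome, taken as every row of the expression table whose symbol begins with Psma, Psmb, Psmc, Psmd, Psme, Psmf or Psmg followed by a digit. The rule found 52 of 26146 rows, 5 of them immunoproteasome genes (Psmb8, Psmb9, Psmb10, Psme1 and Psme2) and 47 others. RNA was measured by poly(A) sequencing in RAW264.7 cells, a single mouse macrophage-like tumour line, in 9 libraries: 3 named M, 3 named ET and 3 named Normal, whose titles name no agent. Samples titled LPS+Extract point to the M columns of the table and samples titled LPS point to the ET columns, but the library names on those same samples are the other way round, so the groups are called M and ET. Both M and ET were exposed to lipopolysaccharide (LPS), a component of the bacterial outer membrane that macrophages sense through Toll-like receptor 4, and 1 of the 2 also received an active extract from traditional Chinese medicine. The labels give no plant, dose or exposure time. They do not say that replicates were separate cultures, so p-values measure the spread between these libraries, which may be technical.

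The proteasome degrades ubiquitin-marked proteins. Its 20S core is a stack of rings of alpha subunits, which form the gate, and beta subunits, which hold the proteolytic sites, and the 19S cap recognises, unfolds and feeds in the substrate. In the immunoproteasome the catalytic beta subunits Psmb5, Psmb6 and Psmb7 are replaced by the inducible Psmb8, Psmb9 and Psmb10, and the core can carry the PA28 ring of Psme1 and Psme2 in place of a 19S cap. Macrophages are known to raise the inducible genes after interferon exposure, and the altered cleavage favours peptides that fit major histocompatibility complex (MHC) class I.

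Each library held 55039858 to 76242718 gene-assigned counts. Of the same-group pairs, those with the third ET library differed most, with a chi-square per gene of 21.4 and 26.2 against 11.2 to 16.3 for the other pairs. Of 10 macrophage markers, 9 reached 1 FPKM (fragments per length of transcript and sequencing depth), and their list summed to 2428 to 2480 FPKM in M libraries, 2504 to 2683 in ET libraries and 2036 to 2154 in Normal libraries, with Mertk at 0 or near 0. The markers went both ways: of the 9, 4 were higher and 3 lower in treated cells, among them Cd14, with 1009 ± 26.1 FPKM in M libraries, 959 ± 44.6 FPKM in ET libraries and 201 ± 5.26 FPKM in Normal libraries, and Csf1r, with 176 ± 3.44 FPKM in M libraries, 192 ± 1.77 FPKM in ET libraries and 320.4 ± 8.85 FPKM in Normal libraries (SD, n = 3 each). Of the marker lists for 8 other cell types, the granulocyte list moved most, through S100a8, summing to 41.4 to 47.5 FPKM in M libraries, 37.8 to 46.9 in ET libraries and 0 to 0.129 in Normal libraries, and its part in the results below was not tested. All calls below come from edgeR's quasi-likelihood test over 11536 genes with Benjamini-Hochberg adjustment, called below 0.05, and levels compared between libraries are counts scaled to library size by TMM (CPM). Of the 52 members, 50 were tested, and all 50 had at least 1 FPKM in all 9 libraries. The 2 left out were Psmb11, the beta subunit of thymus epithelium, and the pseudogene Psmb7-ps2, both below 1 FPKM in every library.

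Treated cells had more mRNA for most proteasome subunits, while the immunoproteasome genes split. Against Normal, the mean of M and ET was higher for 34 of the 50 tested members and lower for 3, where 36.8% of all tested genes were higher and 36.8% lower. The median log2 fold change was 0.185 over the members and -0.013 over all tested genes, and only Psmb8 rose by 2-fold or more, a size reached by 10.6% of all tested genes. The typical change was small: the median absolute log2 fold change was 0.20 for the members and 0.36 for all tested genes. Of the 5 immunoproteasome genes, 2 rose, 1 fell and 2 did not pass the test, and of the 45 other members, 32 rose, 2 fell and 11 did not pass. The 32 include 3 rows set apart from the subunits below, Psma5-ps, Psmc3ip and Psme2b, the last a close copy of the immunoproteasome gene Psme2. With total counts alone as the scaling, the split over the members was 24 higher and 8 lower, and leaving out any 1 library gave 28 to 36 higher. In bulk RNA, fewer cells with a transcript and less of it per cell cannot be told apart.

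**Figure D1:**
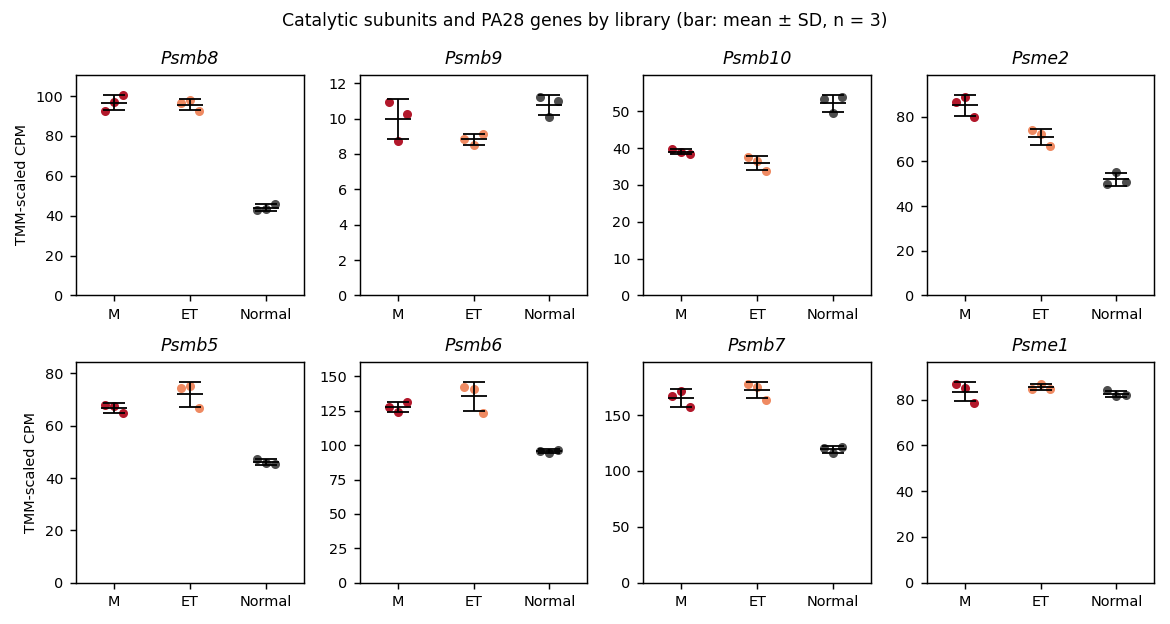
TMM-scaled CPM of the inducible subunit genes and Psme2 (top) and of the constitutive catalytic subunit genes and Psme1 (bottom) in each library of M, ET and Normal. Points are libraries, bars mean ± SD (n = 3). Psmb8 sits at 92.6 to 101 CPM in treated libraries and 43.1 to 46.0 CPM in Normal libraries, whereas Psmb10 is lower in treated libraries.

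The inducible catalytic subunits moved in different directions. The files place Psmb8 (ENSMUSG00000024338) at chr17:34197721-34201454 on the plus strand and Psmb9 (ENSMUSG00000096727) at chr17:34181987-34187764 on the minus strand. They place Psmb10 (ENSMUSG00000031897) at chr8:105935735-105938104 on the minus strand. Psmb8, the inducible beta5 subunit with chymotrypsin-like activity, had 92.7, 97.1 and 101 CPM in the M libraries, 96.8, 98.0 and 92.6 CPM in the ET libraries and 43.1, 43.2 and 46.0 CPM in the Normal libraries. Every treated library lay above every Normal library, and M and ET overlapped. The log2 fold change of the treated mean was 1.13 ± 0.042 (SE), a 2.18-fold rise (edgeR adjusted p = 7.79e-11), and it was 1.13 in M and 1.12 in ET against Normal.

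Psmb10, the inducible beta2 subunit with trypsin-like activity, had 39.7, 38.8 and 38.4 CPM in the M libraries, 37.6, 36.5 and 33.8 CPM in the ET libraries and 53.2, 49.5 and 53.8 CPM in the Normal libraries. Every treated library was lower than every Normal library, with a log2 fold change of -0.48 ± 0.050 (edgeR adjusted p = 2e-06). An antisense gene, Gm16156, overlaps Psmb10 but held at most 20 counts in a library. Psmb9, the inducible beta1 subunit, had 10.9, 8.72 and 10.3 CPM in the M libraries, 8.86, 8.50 and 9.12 CPM in the ET libraries and 11.2, 10.1 and 11.0 CPM in the Normal libraries, with M overlapping both other groups. Its treated-mean log2 fold change of -0.20 ± 0.095 did not pass the test (edgeR adjusted p = 0.0775). The ET libraries alone fell against Normal (-0.29, adjusted p = 0.035), a call lost when any 1 of the 3 ET libraries, or Normal library 1 or 3, was left out, and in M the value was -0.11 (adjusted p = 0.393). The treated mean was called lower in 4 of 18 alternative fits, among them without M library 1 (-0.23). Psmb9 overlaps Tap1 on the opposite strand by 212 bases, and Tap1 rose; no source used here gives the strand setting of the authors' counting, so reads from that overlap cannot be told apart.

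Psmb8 and Psmb9 lie on either side of Tap1 in the MHC region of chromosome 17, yet their transcripts behaved differently, so their promoter windows are shown, with those of Psmb5 and Psmd8, the core members with the largest rise in the 20S and the 19S. Windows run from 250 bases before to 50 after a RefSeq start site (GRCm38.p6), on the gene's strand, and 42 of the 52 members matched. Capitals mark matches to the searched motifs. The window of Psmb8 is chr17:34197945-34198244 on the plus strand, of Psmb9 chr17:34187281-34187580, of Psmb5 chr14:54617946-54618245 and of Psmd8 chr7:29180624-29180923, all 3 on the minus strand.
Psmb8: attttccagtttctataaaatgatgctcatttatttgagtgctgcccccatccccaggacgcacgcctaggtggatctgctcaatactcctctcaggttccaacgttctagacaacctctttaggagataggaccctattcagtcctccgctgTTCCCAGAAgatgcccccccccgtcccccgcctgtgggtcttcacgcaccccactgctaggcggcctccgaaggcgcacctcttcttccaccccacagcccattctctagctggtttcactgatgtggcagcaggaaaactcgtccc
Psmb9: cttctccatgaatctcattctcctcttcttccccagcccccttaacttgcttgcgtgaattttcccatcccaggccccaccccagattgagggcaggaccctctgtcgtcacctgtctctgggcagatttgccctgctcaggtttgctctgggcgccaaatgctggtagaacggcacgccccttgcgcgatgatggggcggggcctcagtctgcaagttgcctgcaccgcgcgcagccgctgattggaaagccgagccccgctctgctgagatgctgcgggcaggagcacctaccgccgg
Psmb5: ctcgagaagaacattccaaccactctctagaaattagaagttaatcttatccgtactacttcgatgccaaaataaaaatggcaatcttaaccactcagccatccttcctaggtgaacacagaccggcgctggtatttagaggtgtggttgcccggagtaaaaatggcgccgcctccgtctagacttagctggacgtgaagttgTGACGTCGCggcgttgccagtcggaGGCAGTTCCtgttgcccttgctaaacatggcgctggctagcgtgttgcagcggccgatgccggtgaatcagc
Psmd8: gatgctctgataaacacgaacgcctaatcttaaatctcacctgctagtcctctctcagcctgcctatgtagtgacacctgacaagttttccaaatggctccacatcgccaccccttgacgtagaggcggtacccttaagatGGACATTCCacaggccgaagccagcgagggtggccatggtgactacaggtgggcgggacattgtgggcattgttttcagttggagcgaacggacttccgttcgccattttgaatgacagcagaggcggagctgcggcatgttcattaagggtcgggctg

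Psmb8's window held TTCCCAGAA, a match to the STAT core TTCNNNGAA, at bases -97 to -89 from the start site. That core, searched like the others on both strands, was in the windows of 3 of 42 members (7.14%; Psmb8, Psmd2 and Psmg1) and of 9.55% of all 27025 genes. Psmb5's window held the antioxidant response element core TGACNNNGC, present in 6 members (14.3%) and 14% of all genes, and the kappa-B core GGNNNTTCC. Psmd8's window held the kappa-B core alone, which was in 16 members (38.1%) and 20.7% of all genes. The interferon-stimulated response element core GAAANNGAA was in 7 members (16.7%), Psme1 among them and none of the inducible beta genes, and in 9.76% of all genes. The windows of Psmb9, Psmb10 and Psme2 held none of these letters, and the window of Psmb10 starts outside the span that the files give for the gene. The windows of Psmb8 and Psmb9 lie wholly inside the spans given above for these genes. They therefore do not show the bases before those spans, and a missing match says nothing about them. Different motifs may share bases, and a match is a description of letters, not of binding.

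The constitutive catalytic subunits all rose. Psmb5, the chymotrypsin-like beta5 subunit that Psmb8 replaces, had 68.0, 67.6 and 64.8 CPM in the M libraries, 74.3, 75.2 and 66.6 CPM in the ET libraries and 47.5, 45.9 and 45.4 CPM in the Normal libraries. Psmb6, the caspase-like beta1 subunit that Psmb9 replaces, had 127, 124 and 132 CPM in the M libraries, 142, 141 and 123 CPM in the ET libraries and 96.1, 94.0 and 96.6 CPM in the Normal libraries. Psmb7, the trypsin-like beta2 subunit that Psmb10 replaces, had 167, 172 and 157 CPM in the M libraries, 178, 175 and 164 CPM in the ET libraries and 120.5, 116 and 122 CPM in the Normal libraries. In all 3 genes each treated library lay above each Normal library, while M and ET overlapped. The log2 fold changes of the treated mean were 0.58 ± 0.047 for Psmb5, 0.46 ± 0.046 for Psmb6 and 0.50 ± 0.040 for Psmb7 (SE; edgeR adjusted p = 1.62e-07, 1.2e-06 and 1.52e-07). Reads of Psmb5 are uncertain, because the processed pseudogene Gm3375 matches its transcript at 98.9% over 796 bases and was listed at 84.8 ± 3.82 CPM in M libraries, 91.4 ± 1.27 CPM in ET libraries and 58.8 ± 0.404 CPM in Normal libraries (SD, n = 3 each). Summing close copies with their parent left the log2 fold change of Psmb5 at 0.58 ± 0.034 (SE) for the treated mean. Psmb7 overlaps the protein-coding gene Nek6 on the opposite strand by 6571 bases, and Nek6 held up to 6175 counts in a library. With the strand setting of the counting not given, reads from that overlap cannot be told apart. This limit also holds for the ratio Psmb10/Psmb7 below.

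For each catalytic position, the FPKM of the inducible gene was set over that of its constitutive partner within a library, which does not depend on library scaling. These are ratios of mRNA: subunit protein and assembled particles were not measured. At beta5 the ratio Psmb8/Psmb5 was 0.362, 0.382 and 0.413 in M libraries, 0.346, 0.346 and 0.369 in ET libraries and 0.241, 0.250 and 0.270 in Normal libraries. At beta1 the ratio Psmb9/Psmb6 was 0.0438, 0.0358 and 0.0399 in M libraries, 0.0318, 0.0308 and 0.0377 in ET libraries and 0.0595, 0.0549 and 0.0582 in Normal libraries. At beta2 the ratio Psmb10/Psmb7 was 0.476, 0.453 and 0.490 in M libraries, 0.423, 0.418 and 0.413 in ET libraries and 0.885, 0.858 and 0.886 in Normal libraries. Treated and Normal libraries did not overlap at any position: the ratio was higher in treated libraries at beta5 and lower at beta1 and beta2. Both partners enter these ratios. At beta5 Psmb8 (1.13) and Psmb5 (0.585) both rose. At beta1 Psmb6 rose (0.46) while Psmb9 (-0.20) was not called, and at beta2 Psmb7 rose (0.50) while Psmb10 fell (-0.48). The overlap of Psmb9 with Tap1 also limits the ratio Psmb9/Psmb6. The log2 differences, treated against Normal, were 0.54, -0.66 and -0.98 in that order, each with an exact two-sided permutation p of 0.02381, the smallest that 6 against 3 libraries allow, and the same after adjustment over the 3 ratios.

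As shares of the pair, Psmb8 made up 27.8 ± 1.33% of beta5 FPKM in M libraries, 26.1 ± 0.724% in ET libraries and 20.2 ± 0.921% in Normal libraries (SD, n = 3 each). Psmb9 made up 3.83 ± 0.368% of beta1 FPKM in M libraries, 3.23 ± 0.350% in ET libraries and 5.44 ± 0.208% in Normal libraries. Psmb10 made up 32.1 ± 0.879% of beta2 FPKM in M libraries, 29.5 ± 0.243% in ET libraries and 46.7 ± 0.454% in Normal libraries. In FPKM, Psmb9 thus had the smallest share in every group, and Psmb10 the largest in M, ET and Normal. The order of Psmb8 and Psmb10 depends on the transcript lengths behind FPKM. In CPM, Psmb8 averaged 96.8 beside 66.8 for Psmb5 in M libraries, 95.8 beside 72.0 in ET and 44.1 beside 46.3 in Normal. Psmb10 averaged 38.95 beside 165 for Psmb7 in M libraries, 36.0 beside 172 in ET and 52.2 beside 119 in Normal. Counting Gm3375 with Psmb5 lowers the share of Psmb8 to 13.7 ± 0.446% in M libraries, 12.7 ± 0.0976% in ET libraries and 9.43 ± 0.408% in Normal libraries, with the log2 difference still 0.54. Between M and ET the log2 differences were 0.12 at beta5, 0.25 at beta1 and 0.18 at beta2. Their exact two-sided permutation p-values were 0.2, 0.2 and 0.1, where 3 against 3 libraries cannot go below 0.1, and 0.2 after adjustment.

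**Figure D2:**
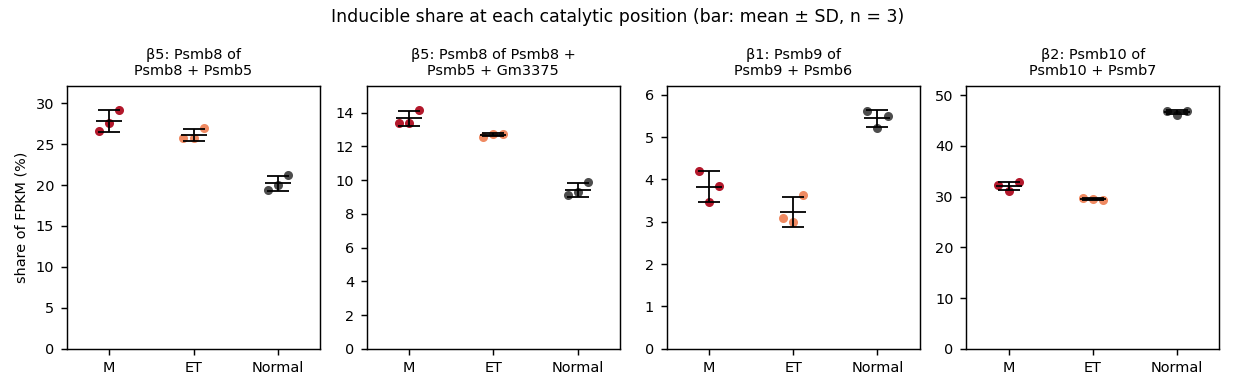
Share of the inducible gene in the summed FPKM (%) of each catalytic position, per library of M, ET and Normal; points are libraries and bars mean ± SD (n = 3). The share is higher in treated libraries at beta5, also with the Psmb5 copy Gm3375 included, and lower at beta1 and beta2, where Psmb10 stands at 46.7% in Normal libraries.

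The PA28 genes also parted. Psme2, the beta subunit of PA28, had 86.4, 89.0 and 79.7 CPM in the M libraries, 73.8, 72.3 and 66.8 CPM in the ET libraries and 49.8, 55.2 and 50.7 CPM in the Normal libraries. The 3 groups did not overlap, with M highest and Normal lowest, and the log2 fold change was 0.71 ± 0.058 in M and 0.45 ± 0.058 in ET against Normal (SE; edgeR adjusted p = 2.27e-07 and 1.68e-05). Psme1, the alpha subunit, had 86.6, 85.2 and 78.7 CPM in the M libraries, 84.5, 87.0 and 84.7 CPM in the ET libraries and 84.0, 81.4 and 82.0 CPM in the Normal libraries. Its groups lay close together, and its treated-mean log2 fold change of 0.034 ± 0.038 did not pass (edgeR adjusted p = 0.429). In FPKM, which compares genes only as far as the transcript lengths behind it hold, Psme2 averaged 43.8 ± 2.39 FPKM in M libraries, 36.8 ± 1.96 FPKM in ET libraries and 28.4 ± 1.65 FPKM in Normal libraries (SD, n = 3 each). Psme1 averaged 34.3 ± 1.63 FPKM in M libraries, 35.4 ± 0.735 FPKM in ET libraries and 36.0 ± 0.445 FPKM in Normal libraries. Psme2b, a close copy of Psme2, averaged 31.2 ± 0.616 FPKM in M libraries, 32.6 ± 3.54 FPKM in ET libraries and 19.5 ± 0.728 FPKM in Normal libraries, so no order of Psme2 and Psme1 is read from these levels.

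The row Psme2b is a close copy of Psme2, at 99.4% identity over 794 bases, and had 29.4, 28.2 and 28.5 CPM in the M libraries, 29.6, 33.0 and 26.8 CPM in the ET libraries and 16.5, 16.6 and 17.6 CPM in the Normal libraries. It rose by 0.79 ± 0.070 on the log2 scale (SE; edgeR adjusted p = 4e-07) with no overlap between treated and Normal. Reads cannot be assigned with certainty between these rows, and with close copies summed the log2 fold change of Psme2 was 0.64 ± 0.047 (SE) against Normal. Of the other activators, Psme3, the PA28 gamma subunit of nuclear proteasomes, had 292, 305 and 306 CPM in the M libraries, 298, 301 and 303 CPM in the ET libraries and 323, 323 and 335 CPM in the Normal libraries. That is a small fall without overlap, -0.12 ± 0.029 on the log2 scale (SE; edgeR adjusted p = 0.00234). Psme4, the PA200 activator, overlapped between groups, with a log2 fold change of -0.037 ± 0.055 that did not pass (edgeR adjusted p = 0.563).

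**Figure D3:**
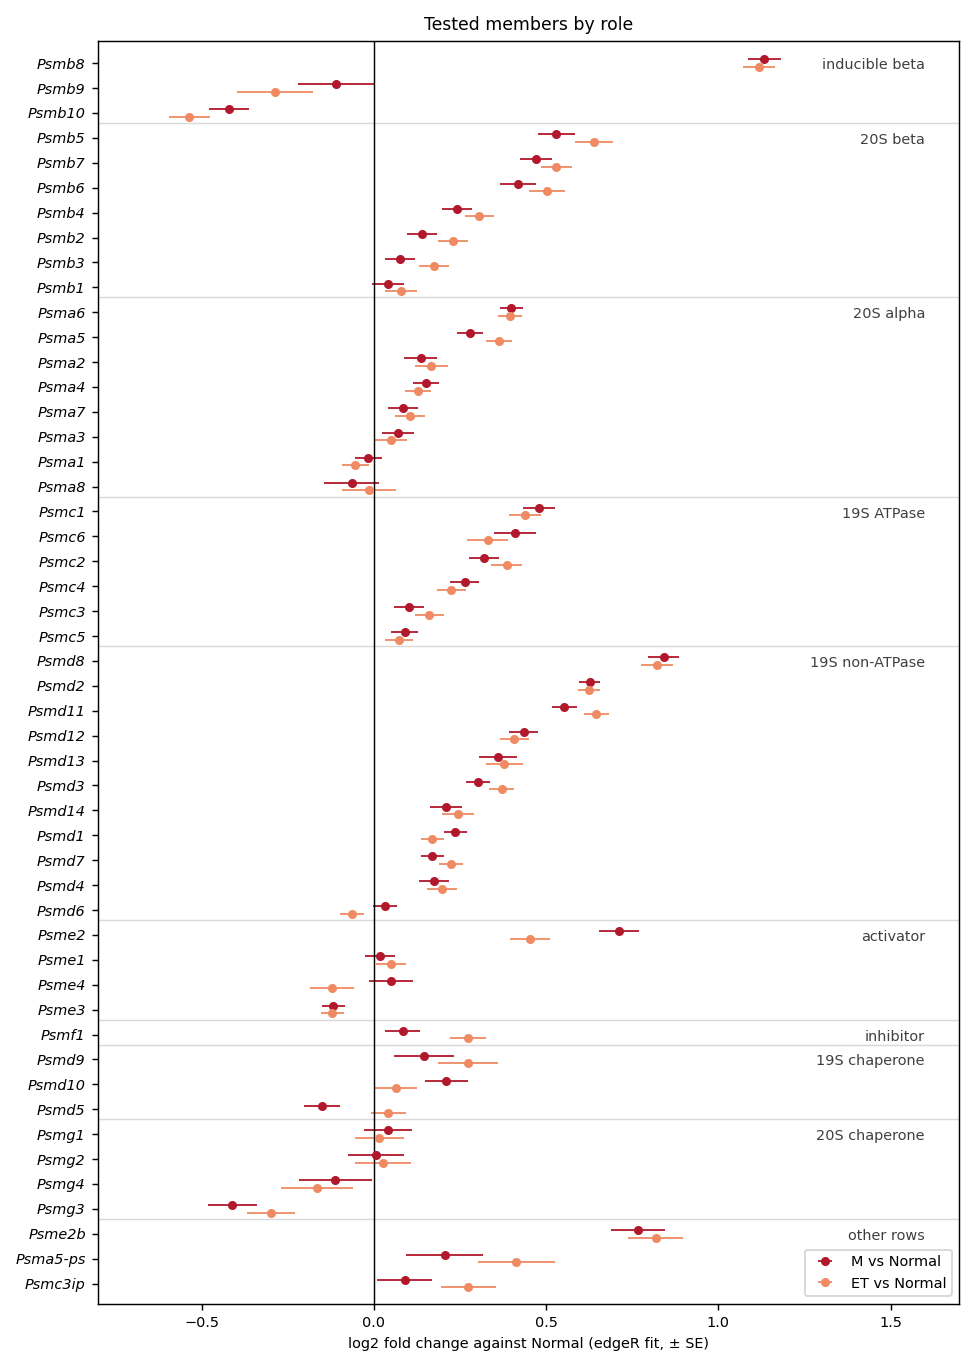
Log2 fold change (± SE, edgeR fit) of all 50 tested members, M against Normal and ET against Normal, grouped by role and sorted within a role by the mean of both. Nearly all core subunits lie right of 0, whereas Psmb10, Psmg3 and Psme3 lie left of it in both groups.

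The core particle and cap rose broadly. Of the 32 core subunits, 26 rose, none fell and 6 did not pass the test against Normal (median log2 fold change 0.24, all tested genes -0.013, with 36.8% of all tested genes higher). That none fell depends on the fit: Psma1 and Psmd6 were each called lower in 3 of 18 alternatives. Over the alternatives their values went down to -0.12 and -0.101. These 32 leave out the inducible and thymus beta genes but include Psma8 of germ cells. By class, 5 of 8 alpha, 6 of 7 constitutive beta, 5 of 6 ATPase and 10 of 11 non-ATPase subunits rose, with medians of 0.12, 0.27, 0.30 and 0.34. The alpha ring, which gates the core, was led by Psma6, with 169, 167 and 166 CPM in the M libraries, 165, 169 and 168 CPM in the ET libraries and 129.6, 127 and 124 CPM in the Normal libraries. Its treated and Normal libraries were far apart, and its log2 fold change was 0.40 ± 0.030 (SE; edgeR adjusted p = 7.3e-08). Psma5 (0.32), Psma2 (0.15), Psma4 (0.14) and Psma7 (0.094) also rose. The calls of Psma2 and Psma4 were each lost in 3 of 18 alternatives, and that of Psma7 (edgeR adjusted p = 0.0419) in 11 of 18. Among the losses of Psma7 were the fits without ET library 1 or 2, M library 3 or Normal library 2 or 3. Psma1 (-0.035), Psma3 (0.059) and the germ-cell alpha subunit Psma8 (-0.040) did not pass. Psma3 has a copy, Gm13835, identical over 685 bases and listed at 50.6 ± 2.95 CPM in M libraries, 50.6 ± 3.18 CPM in ET libraries and 49.9 ± 0.961 CPM in Normal libraries, and summing the copies gave 0.048 ± 0.041 (SE), which did not pass.

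Among the non-catalytic beta subunits, Psmb4 rose by 0.27, Psmb2 by 0.18 and Psmb3 by 0.12 on the log2 scale, and Psmb1 (0.059) did not pass. For Psmb3 treated and Normal libraries overlapped, and M alone did not pass (edgeR adjusted p = 0.142). Its call for the treated mean was lost in 4 of 18 alternatives, which ranged from 0.04 to 0.183. The ATPase ring, which unfolds substrates and opens the gate, was led by Psmc1, with 233, 232 and 234 CPM in the M libraries, 242, 224 and 212 CPM in the ET libraries and 169.8, 161 and 171 CPM in the Normal libraries. Treated libraries all lay above Normal, with a log2 fold change of 0.46 ± 0.041 (SE; edgeR adjusted p = 4.35e-07). Psmc6 (0.37), Psmc2 (0.35), Psmc4 (0.24) and Psmc3 (0.13) rose too, and Psmc5 (0.081) did not pass. The call of Psmc3 was lost in 3 of 18 alternatives.

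In the lid and base of the cap, Psmd8, a lid subunit known from yeast to join the lid last, had 325, 316 and 303 CPM in the M libraries, 332, 305 and 294 CPM in the ET libraries and 178, 174 and 174 CPM in the Normal libraries. It had the largest rise after Psmb8 among all members, 0.83 ± 0.041 on the log2 scale or 1.78-fold (edgeR adjusted p = 1.33e-09), with no overlap. Psmd2, a scaffold of the base that binds ubiquitin shuttles, had 618, 621 and 617 CPM in the M libraries, 622, 624 and 607 CPM in the ET libraries and 399.9, 390.1 and 412 CPM in the Normal libraries, a log2 fold change of 0.62 without overlap. Psmd11, a lid subunit that bridges cap and core, rose by 0.60. The lid subunits Psmd12 (0.42), Psmd13 (0.37), Psmd3 (0.34) and Psmd7 (0.20) followed. So did the deubiquitinase Psmd14 (0.23), the base scaffold Psmd1 (0.20) and the ubiquitin receptor Psmd4 (0.19). The lid subunit Psmd6 (-0.016) was the only one of the 11 that did not pass.

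Summed per class, FPKM gave the same picture. The 11 non-ATPase cap genes summed to 659 ± 3.81 FPKM in M libraries, 667 ± 18.8 in ET libraries and 528 ± 6.98 in Normal libraries (SD, n = 3 each). The 7 constitutive beta genes summed to 477 ± 2.15 FPKM in M libraries, 508 ± 24.6 in ET libraries and 422 ± 12.7 in Normal libraries. The 3 inducible beta genes together summed to 49.2 ± 0.858 FPKM in M libraries, 47.5 ± 1.79 in ET libraries and 45.0 ± 1.74 in Normal libraries, with treated and Normal libraries overlapping. Of these sums, Psmb8 made up 26.0 ± 1.17 FPKM in M libraries, 25.9 ± 0.855 FPKM in ET libraries and 12.6 ± 0.508 FPKM in Normal libraries. How far the changes of the 3 genes offset each other in the sum depends on the transcript lengths behind FPKM. In CPM, Psmb8 averaged 96.3 in treated and 44.1 in Normal libraries, Psmb10 37.45 and 52.2, and Psmb9 9.40 and 10.8. In Normal cells the core subunit genes differed widely in level, Psma8 lowest at 9.29 FPKM and Psma5 highest at 150.2 FPKM.

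**Figure D4:**
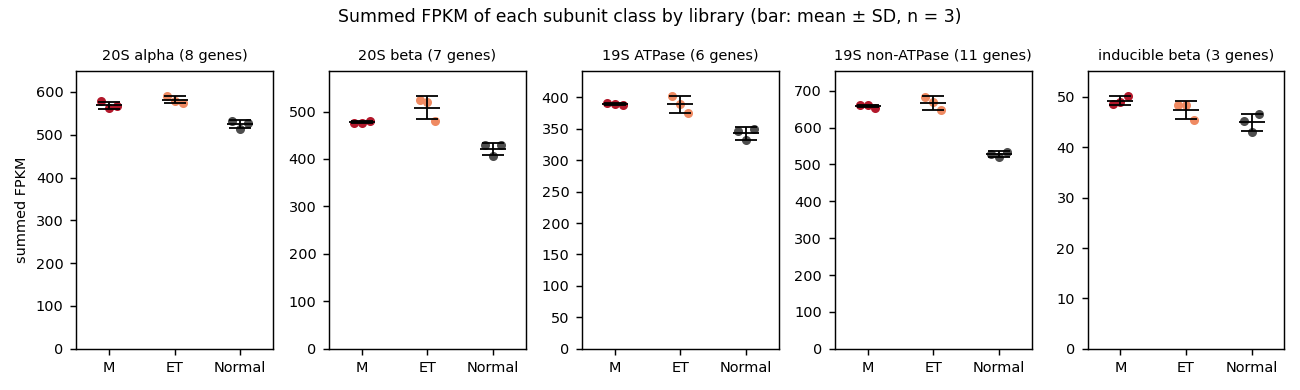
Summed FPKM of each subunit class per library of M, ET and Normal; points are libraries, bars mean ± SD (n = 3). Treated libraries lie above Normal libraries in the alpha, beta and both 19S classes, while the 3 inducible beta genes sum to 43.1 to 50.2 FPKM in all 9 libraries. The inducible sum depends on the transcript lengths behind FPKM, as its genes moved in different directions.

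Of the 8 assembly factors and inhibitor, 3 rose (37.5%), 1 fell (12.5%) and 4 did not pass, beside 36.8% of all tested genes higher and 36.8% lower. Of the 4 chaperones of 20S assembly, none rose, Psmg3 fell, and Psmg1 (0.028), Psmg2 (0.015) and Psmg4 (-0.14) did not pass. Psmg3, which guides early alpha ring assembly, had 26.1, 24.9 and 25.5 CPM in the M libraries, 30.3, 27.1 and 25.3 CPM in the ET libraries and 34.6, 32.9 and 34.3 CPM in the Normal libraries. Every treated library was lower than every Normal library, with a log2 fold change of -0.35 ± 0.061 (SE; edgeR adjusted p = 0.000178). Of the chaperones of the 19S base, Psmd9, with 37.5, 31.7 and 37.0 CPM in the M libraries, 41.2, 38.6 and 35.9 CPM in the ET libraries and 33.8, 28.6 and 33.6 CPM in the Normal libraries, rose by 0.21 ± 0.076 (SE; edgeR adjusted p = 0.0254). Its groups overlapped, and the call was lost in 6 of 18 alternatives, among them without M library 1 (0.19) or Normal library 2 (0.14). Psmd10, also called gankyrin, rose by 0.14 (edgeR adjusted p = 0.0391). That call was lost in 11 of 18 alternatives, among them without ET library 1, M library 1 or 2, or any Normal library. Psmd5 (-0.055) did not pass. Psmf1, known as PI31 and named as an inhibitor of the core, rose by 0.18 ± 0.046 (SE, edgeR adjusted p = 0.00344), a call lost in 3 of 18 alternatives.

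The rule also took in rows that are not subunits. The pseudogene Psma5-ps, 98.6% identical to Psma5 over 952 bases, rose by 0.31 on the log2 scale (edgeR adjusted p = 0.0125). That call was lost in 3 of 17 alternatives, among them without Normal library 1 or 2. Psmc3ip, a meiotic recombination factor named for its binding to Psmc3, rose by 0.18 (edgeR adjusted p = 0.0316). That call was lost in 7 of 18 alternatives, among them without M library 2 or Normal library 2 or 3. Both, like the Psme2 copy Psme2b, are among the 45 other members counted above. Of all 52 members, 23 match a transcript of another gene at 90% identity or more over at least 300 bases, and 25 overlap another gene. Not every match is a copy: Psmc2 matched many unrelated genes, Rock1 among them, and Psmc3ip matched its overlapping neighbour Mlx. With close copies summed, 32 were higher and 3 lower than Normal. In that fit Psma5-ps and Psme2b, both higher in the main fit, were added to their parents and not counted as members.

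Each treated group gave a like split on its own, over the same Normal libraries. In M, 27 of 50 members were higher and 4 lower than Normal, where 35.5% and 34.5% of all tested genes were higher and lower. In ET, 32 were higher and 4 lower, where the figures over all genes were 35.0% and 35.2%. Of the 5 immunoproteasome genes, Psmb8 and Psme2 were higher and Psmb10 lower in both M and ET, and Psmb9 was lower in ET. Among other members, Psmd5 was lower in M (-0.15) and Psmf1 higher in ET (0.27), while Psme3 and Psmg3 were lower in both. The call of Psmd5 in M was lost without M library 2 or Normal library 3.

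Between M and ET, Psme2 was higher in M and Psmd5 and Psmf1 were lower. These are 2% of the 50 tested members higher and 4% lower, near the 4.97% and 4.12% of all tested genes. None of the 3 reached 1.2-fold. Psme2 differed by 0.26 ± 0.058 on the log2 scale (SE; edgeR adjusted p = 0.0166), and all 3 M libraries lay above all 3 ET libraries. The call was lost without M library 1 (0.25) or M library 2 (0.23), and with the copy Psme2b added (0.175, edgeR adjusted p = 0.0593), and Psme2b itself differed by -0.052. Psmd5 had 74.7, 70.2 and 78.5 CPM in the M libraries, 85.0, 86.6 and 83.7 CPM in the ET libraries and 80.4, 79.9 and 87.9 CPM in the Normal libraries, and its log2 difference was -0.19 ± 0.052 (SE; edgeR adjusted p = 0.0384). Psmf1 had 42.1, 42.3 and 43.2 CPM in the M libraries, 47.9, 49.7 and 48.0 CPM in the ET libraries and 42.0, 39.5 and 39.0 CPM in the Normal libraries, with a log2 difference of -0.19 ± 0.052 (SE; edgeR adjusted p = 0.042). For both, M and ET did not overlap, but the calls were lost without ET library 1 or 2 or M library 1 or 2, and for Psmf1 also without M library 3 or Normal library 2. Every alternative kept the sign of these 3 differences.

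None of the 32 core subunits was called between M and ET, with log2 differences of -0.11 to 0.097. An unadjusted p below 0.05 was found for 4 of these 32, for 10 of the 50 members and for 2935 of all 11536 genes. Psmb8 differed by 0.015 ± 0.046, Psmb9 by 0.18 ± 0.11 and Psmb10 by 0.12 ± 0.059 (SE), none of which passed (edgeR adjusted p = 0.874, 0.354 and 0.25). These counts changed without the third ET library. Without it, 2 members were higher and 5 lower in M, with Psmb2 (-0.14), Psmb5 (-0.17) and Psmb6 (-0.15) newly lower and Psme4 (0.24) newly higher, and 1121 and 707 genes were called over all.

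Beside the members, a list of 14 regulators and peptide transport genes around the inducible subunits had 9 rising and 5 falling against Normal (median log2 fold change 0.81, all tested genes -0.013). Tap1 and Tap2, the peptide transporter of the MHC region, rose by 1.76 and 1.14, and Nlrc5, an activator of MHC class I genes, by 1.72. Irf1, a transcription factor known to drive Psmb9, averaged 16.3 ± 0.206 CPM in M libraries, 15.0 ± 1.06 CPM in ET libraries and 30.2 ± 2.33 CPM in Normal libraries (SD, n = 3 each), a log2 fold change of -0.95 (edgeR adjusted p = 4.21e-08). Between M and ET, 5 of the 14 were higher in M and none lower, where 4.97% of all tested genes were higher and 4.12% lower. Tap1 stood 0.24 higher on the log2 scale (edgeR adjusted p = 0.0289), but this call was lost in 10 of 18 alternatives. It was lost whichever 1 of the 6 M and ET libraries was left out.

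A list of 12 genes around NFE2L1, the transcription factor that raises subunit genes when proteasome activity is short, had 9 rising and 2 falling (median 0.24). Nfe2l1 itself had 276 ± 5.42 CPM in M libraries, 267 ± 7.91 CPM in ET libraries and 189 ± 2.72 CPM in Normal libraries (SD, n = 3 each), a log2 fold change of 0.52 ± 0.031 (SE; edgeR adjusted p = 7.1e-09), with M and ET 0.044 apart. Of 12 proteasome partners outside the name rule, 6 rose and 2 fell (median 0.066). Pomp, the maturation factor of the core, was among those that rose, by 0.12 (edgeR adjusted p = 0.0108). Its call was lost in 5 of 18 alternatives, among them without Normal library 2 (0.11), and the alternatives ranged from 0.035 to 0.157. Of 12 genes of ubiquitin supply and shuttling, 6 rose and 5 fell (median 0.083). For these 4 lists the shares over all tested genes are the same 36.8% higher and 36.8% lower as above.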

How the data were processed

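Poly(A) RNA libraries were made with a dUTP strand-marking protocol, per the labels' protocols; no source used here says whether counting used strand. Per the submitters' processing notes, cutadapt 1.9, HISAT2 2.2.1, StringTie 2.1.6, DESeq2 and edgeR were used. The authors deposited, in a single table, raw counts and FPKM per gene and library. No source used here names the genome build, but 90.1% of the rows (23547), 45 members among them, have the coordinates of GENCODE mouse release 21.

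Counts of the 9 libraries were fitted with edgeR 4.0.16 (quasi-likelihood, TMM scaling, R 4.3.3) in a single model of 3 groups, over the 11536 genes with at least 1 FPKM in at least 3 libraries. Contrasts were the mean of M and ET against Normal, each against Normal, and M against ET, with Benjamini-Hochberg adjustment. Ratios used deposited FPKM and exact two-sided permutation tests. Same-numbered libraries of different groups deviated with correlations of -0.05 to 0.076. These show no sign that the numbers pair libraries, though 3 libraries a group cannot exclude it. Alternatives used DESeq2 1.42.0, limma 3.58.1 on log2(FPKM + 1) or log2(FPKM + 0.1), other scalings, filters and thresholds, a replicate block and each library left out. Summing close copies was chosen after seeing the data. Copies were found by aligning GENCODE transcripts to each other.

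The members and lists were chosen with earlier results of these data known. Genes named in full are the immunoproteasome and catalytic subunits and, in each role, the called members with the largest rise and fall. Outside that rule, Psmd2, Psmd5, Psmf1 and Psme2b are also given by library. Others are given by value or count, and of genes that are no members a panel was named: Irf1, Nlrc5, Tap1, Tap2, Nfe2l1 and Pomp; a further gene of the panel is not reported here. The copies Gm3375 and Gm13835 and the cell markers are named for the values they touch.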

Additional observations from a re-analysis of the deposited data

How the results depend on the processing

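No direction of a called result reversed under any alternative run. The rise of the treated mean over Normal held at 28 to 36 of 50 members without any 1 library. Requiring 1.2-fold left 19 members higher, 17 of the other members higher and 1 lower; in ET 1 other member was lower, and in M 16 other members were higher, 1 other member lower and 2 members lower in all. Under total counts or either limma fit, 8 members were lower, 2 of them immunoproteasome genes and 6 others; in ET these were 7 lower (5 others) with total counts and 8 lower (6 others) with limma. Total counts moved the median of all genes to -0.099. At an adjusted p of 0.01, 1 immunoproteasome gene was lower in ET. Without 1 library the immunoproteasome genes lower numbered 1 to 2, for the treated mean and for ET alike.

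Calls between M and ET were the least stable. Genes higher and lower numbered 347 and 247 at 1.2-fold, 215 and 171 at 0.01, 345 and 270 with no low-value filter, 895 and 787 with DESeq2, and 339 higher with limma at a pseudocount of 0.1. Leaving out 1 library gave 265.0 to 1121 genes higher and 244 to 707 lower, 0 to 2 members higher and 0 to 5 lower, 0 to 1 immunoproteasome genes higher, and 0 to 1 other members higher and 0 to 5 lower. At 1.2-fold or at 0.01, 0 members (immunoproteasome or other) were higher or lower. With no low-value filter or with filterByExpr 0 members, and so 0 other members, were lower, and with either limma fit 1 was. Summing copies left 0 members, and 0 immunoproteasome genes, higher. The replicate block left 1 member lower in M than ET, an other member, as Psmf1 was lost. Whether the numbers pair libraries is not known, and 33 members were higher than Normal with the block. The causes were not tested.

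Without 1 library the log2 ratio differences ranged from 0.507 to 0.587 for Psmb8/Psmb5, -0.714 to -0.613 for Psmb9/Psmb6 and -1.007 to -0.958 for Psmb10/Psmb7; with 1 Normal library out, 6 against 2 cannot pass. Ratios of counts gave 0.54, -0.66 and -0.98.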
